A study of Homo sapiens with 3 samples.

Results

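The 10 genes described here mark the epithelial and mesenchymal states of a cell: the transcription factors SNAI1, SNAI2, TWIST1, ZEB1 and ZEB2, the mesenchymal genes VIM, FN1 and CDH2, and the epithelial genes CDH1 and EPCAM. They were chosen by name and not by a measured value, though with earlier results of these data known. All 10 were found among the 29689 gene symbols with expression values. The values come from SUM-149, a human TNBC cell line derived from an inflammatory breast cancer, which was mixed with Matrigel and grown in the mammary fat pads of female Nu/Nu mice. The series asked which genes respond to CDK2 and EZH2 inhibitors in these tumors. The control tumor received vehicle. The CDK2i tumor came from mice given dinaciclib and the EZH2i tumor from mice given EPZ6438, each for 10 days, and no other allele or agent is named for any group. For SUM-149 tumors a legend of the study gives GSK343 as the EZH2 inhibitor, and the drug is named here by the sample labels.

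Each group was 1 tumor library, so no value below has a replicate, no SD between tumors can be given and no p-value was computed. Whether a library pooled tumors of several mice is not stated in the sources used here. The model is 1 cell line in athymic hosts, which lack T cells, and the tumors are bulk tissue in which mouse host cells were mixed with the human cells. In bulk tissue, fewer cells of a type and less RNA per cell cannot be told apart.

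In the epithelial-mesenchymal transition, cells that adhere to each other through E-cadherin lose these contacts and gain the shape and motility of mesenchymal cells. Transcription factors of the SNAIL, TWIST and ZEB families repress CDH1 by binding E-box motifs, directly or through partners, and VIM, FN1 and CDH2 are commonly used as marks of the mesenchymal state. Many basal-like breast cancer lines hold epithelial and mesenchymal genes at the same time. EZH2 is the enzyme that trimethylates lysine 27 of histone H3, a repressive mark found at CpG-rich promoters, and CDK2 is a cell cycle kinase that phosphorylates EZH2. The study states that dinaciclib also inhibits CDK1, CDK5 and CDK9, so the name CDK2i follows the sample label and does not mean a single target.

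Expression is given as FPKM (fragments scaled to gene length and library size) and as its log2. The depth recovered from the smallest steps between values was about 16800000 fragments in the vehicle library, 19100000 in the CDK2i library and 17500000 in the EZH2i library. Over the 11109 expressed genes (mean log2 FPKM above 1, above 0 FPKM in all 3 tumors) the median difference from vehicle was −0.11 in CDK2i and 0.19 in EZH2i. The EZH2i library stood apart in one respect. Across 10201 expressed genes, which are not independent replicates, its difference from vehicle had a Spearman correlation of −0.581 with the GC content of the transcript and 0.489 with its length, against 0.0345 and 0.0933 for CDK2i. Of the EZH2i differences below, those of the 10 genes and of the called pathway genes are also described with this trend removed where it turns their direction or ends their call.

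The keratins of the basal-like state were abundant in all 3 tumors. The 7 basal-like line markers, led by KRT14, summed to 6322 FPKM in vehicle, 15270 under CDK2i and 6150 under EZH2i. KRT5, KRT14, KRT17 and KRT6A were more than 2-fold higher in CDK2i, and EGFR and TP63 in EZH2i, where they were at 0.42 and 0.48 on the log2 scale with the trend removed, short of 2-fold. Of the hormone receptor and HER2 genes, ESR1 was at 0.792, 1.10 and 0.953 FPKM, and ERBB2 was at 30.4, 30.2 and 21.9 FPKM. The tumors thus held the basal keratins known for SUM-149, with ESR1 low and PGR listed at 0 in vehicle and below 0.01 FPKM in the treated tumors.

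Among the 5 transcription factors, SNAI1, SNAI2 and TWIST1 were expressed above the minimum of log2 FPKM 3 (8 FPKM) in all 3 tumors, while ZEB1 and ZEB2 were not in any. SNAI1 (Snail; chromosome 20, 48599517 to 48605423 of GRCh37, plus strand), a zinc-finger repressor of CDH1, was at 14.5 FPKM in the vehicle tumor, 28.0 under CDK2i and 13.4 under EZH2i. The CDK2i tumor alone was high, and the vehicle and EZH2i tumors were close to each other. The CDK2i value was 1.93 times the vehicle value, a log2 difference of 0.95 with a 95% interval of 0.78 to 1.12 from counting error alone, just short of the 2-fold threshold. It lay above 96.4% of the differences of all genes tested in CDK2i. In EZH2i the log2 difference of SNAI1 from vehicle was −0.11 (−0.31 to 0.09), an interval that includes 0, and it was 0.18 with the trend removed.

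SNAI2 (Slug), the second SNAIL factor, which is characteristic of basal mammary cells, was at 16.4 FPKM in vehicle, 27.5 under CDK2i and 23.1 under EZH2i. Both treated tumors were above the vehicle tumor, CDK2i more so. The log2 difference was 0.75 (0.61 to 0.89) in CDK2i and 0.49 (0.34 to 0.65) in EZH2i, and with the GC and length trend removed these were 0.96 and 0.10. For scale, a local spread was taken from the 200 genes of nearest mean level, as the SD of their EZH2i minus CDK2i differences. It includes drug effects and the GC and length trend of EZH2i beside noise, and vehicle is not part of it. The spread was 0.68 for SNAI2 and 0.81 for SNAI1, so both CDK2i differences exceeded it and neither EZH2i difference did.

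TWIST1 (chromosome 7, 19060614 to 19157259, minus strand), a basic helix-loop-helix factor, went the other way. It was at 25.7 FPKM in vehicle, 11.9 under CDK2i and 20.7 under EZH2i, so that the CDK2i tumor was the low one. The log2 difference in CDK2i was −1.11 (−1.29 to −0.92), the vehicle value being 2.15 times the CDK2i value, with a spread of 0.66. TWIST1 was the only one of the 10 genes past the 2-fold and expression thresholds in either treated tumor. This call depended on the scaling. Relative to the median difference of the expressed genes TWIST1 was at −0.995 and with the trend removed at −0.89, short of 2-fold, whereas SNAI1 in CDK2i was then at 1.06 and 1.15, past it. The directions of all 3 factors in CDK2i held under every scaling tried. In EZH2i the TWIST1 difference was −0.31 (−0.47 to −0.15), and −0.05 with the trend removed.

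ZEB1 and ZEB2 encode zinc-finger E-box repressors that are a common switch for the full mesenchymal state, and they were the least expressed of the factors. ZEB2 (chromosome 2, 145121931 to 145278624, minus strand) was at 1.35 FPKM in vehicle, 0.932 under CDK2i and 1.64 under EZH2i. Its differences, −0.53 (−0.84 to −0.24) in CDK2i and 0.28 (0.01 to 0.55) in EZH2i, lay within its spread of 1.49, and the EZH2i value was −0.60 with the trend removed. ZEB1 (chromosome 10, 31607424 to 31818742, plus strand) was at 0.0380, 0.0167 and 0.0911 FPKM, equal to about 4, 2 and 9 fragments. Its log2 differences of −1.19 (−4.66 to 1.61) and 1.26 (−0.73 to 3.26) had intervals that include 0 (the EZH2i value was 0.47 with the trend removed), and a change of ZEB1 was not detectable at this depth.

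Antisense genes overlap some of these loci, and the sources used here do not say whether fragments were counted by strand. ZEB1-AS1, named here after its values were seen, was listed at 0.611 FPKM in vehicle, 0.447 under CDK2i and 2.24 under EZH2i, more than ZEB1 itself in each tumor. VIM-AS1 was at 5.12, 2.47 and 9.25 FPKM, in the same order across the tumors as VIM below. Whether fragments of one gene were counted for its partner was not tested.

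**Figure D1:**
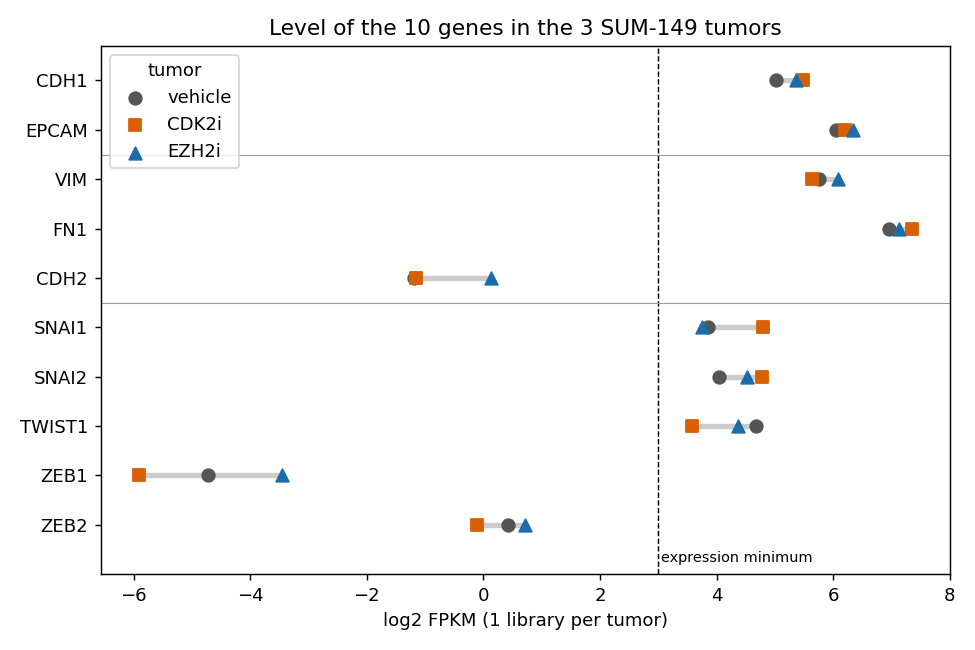
Level of the 10 genes in each tumor, as log2 FPKM on the horizontal axis, with 1 point per tumor library (circle vehicle, square CDK2i, triangle EZH2i), a grey bar over the range of the 3 tumors and a dashed line at the expression minimum of log2 FPKM 3. ZEB1, ZEB2 and CDH2 sit below the line in all 3 tumors, the other 7 genes above it, and TWIST1 and SNAI1 show opposite orders of the CDK2i and vehicle tumors.

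The mesenchymal genes ranged from the highest to among the lowest of the 10. FN1 (chromosome 2, 216225163 to 216300796, minus strand) encodes fibronectin, an extracellular matrix glycoprotein. It was at 124 FPKM in vehicle, 163 under CDK2i and 141 under EZH2i, the highest of the 10 genes in every tumor. The log2 difference was 0.39 (0.37 to 0.42) in CDK2i, and in EZH2i it was 0.19 (0.16 to 0.21), or −0.32 with the trend removed. About 17449 to 26146 fragments lay behind each value, so counting error was small beside the spread of 0.66, and neither difference reached it.

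VIM (chromosome 10, 17270240 to 17279592, plus strand) encodes vimentin, the intermediate filament of mesenchymal cells. It was at 54.1 FPKM in vehicle, 49.6 under CDK2i and 68.1 under EZH2i. The vehicle and CDK2i tumors were nearly level and the EZH2i tumor was somewhat above them. The differences were −0.13 (−0.21 to −0.04) in CDK2i and 0.33 (0.25 to 0.42) in EZH2i, inside the spread of 0.69. The sign in CDK2i turned with the scaling (0.06 with the median levels of the tumors set equal, 0.11 with the trend removed), while in EZH2i it did not.

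CDH2 (chromosome 18, 25512843 to 25757910, minus strand) encodes N-cadherin, which often takes the place of E-cadherin in the transition. It was at 0.440 FPKM in vehicle, 0.446 under CDK2i and 1.09 under EZH2i, from about 30, 34 and 77 fragments. The EZH2i tumor alone was high, although at a level far below the expression minimum. The log2 difference of 1.31 in EZH2i (0.67 to 1.96) excluded 0 by counting error and stayed under the spread of 1.39 for genes this weak, and it was 0.75 with the trend removed. In CDK2i the difference was 0.02 (−0.76 to 0.75).

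**Figure D2:**
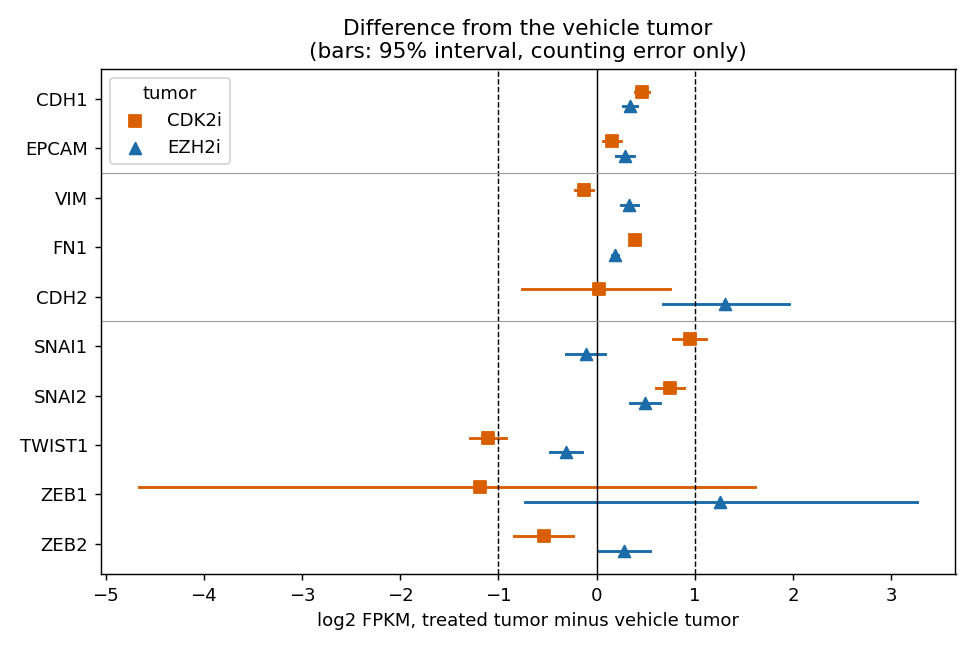
Log2 FPKM of each treated tumor minus the vehicle tumor for the 10 genes (square CDK2i, triangle EZH2i), with bars for the 95% interval from counting error alone, a solid line at 0 and dashed lines at a 2-fold difference in either direction. TWIST1 in CDK2i is past the line at −1.11 and SNAI1 in CDK2i just inside it at 0.95, and the wide bars belong to ZEB1 and CDH2, which rest on 2 to 77 fragments.

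CDH2 and VIM were the mesenchymal members that stayed above vehicle in EZH2i under every scaling tried, so the 250 bases before their transcription starts are shown, chosen after the values were seen. The sequences are from RefSeq on GRCh38.p14, read 5′ to 3′ on the strand of the gene, with each CG dinucleotide in capitals. They lie at chr18:28177131-28177380 (minus strand) for CDH2, at the first of the 2 starts in the table, and at chr10:17227991-17228240 (plus strand) for VIM.
CDH2: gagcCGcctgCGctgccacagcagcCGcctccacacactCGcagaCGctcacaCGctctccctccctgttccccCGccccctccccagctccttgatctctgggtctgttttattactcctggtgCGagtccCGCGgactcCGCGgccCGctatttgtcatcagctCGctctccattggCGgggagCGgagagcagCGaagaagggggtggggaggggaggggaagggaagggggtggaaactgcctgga
VIM: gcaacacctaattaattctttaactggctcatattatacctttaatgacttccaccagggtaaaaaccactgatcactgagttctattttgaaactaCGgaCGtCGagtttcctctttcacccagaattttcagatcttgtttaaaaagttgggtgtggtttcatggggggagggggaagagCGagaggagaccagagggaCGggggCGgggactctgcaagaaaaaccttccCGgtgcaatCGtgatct
The CDH2 sequence holds 17 CG dinucleotides and the VIM sequence 8, against a median of 11 over 35116 promoters of this length. At least 17 were found in 39% of them and at least 8 in 56.3%. Promoters of 5 of the 10 genes were matched. FN1 had 32 CG dinucleotides, ZEB1 had 15 and ZEB2 had 12, and SNAI1, SNAI2, TWIST1, CDH1 and EPCAM were not matched. The E-box form bound by the SNAIL and ZEB factors, CACCTG or on the other strand CAGGTG, occurred in 17.5% of all promoters. Of the matched genes ZEB1 had 1 such match, at the first of its 7 starts, and CDH2, VIM, FN1 and ZEB2 had none in this window. A match describes letters only and was not a measured binding site.

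The epithelial genes were well expressed and differed little between the tumors. CDH1 (chromosome 16, 68771195 to 68869440, plus strand) encodes E-cadherin, the adhesion molecule of epithelial junctions. It was at 32.6 FPKM in vehicle, 44.9 under CDK2i and 41.3 under EZH2i, the vehicle tumor being the lowest. EPCAM (chromosome 2, 47572297 to 47614740, plus strand), an epithelial cell adhesion molecule, was at 66.4, 74.0 and 81.0 FPKM in the same tumors. Again the vehicle tumor was the lowest. The CDK2i differences were 0.46 (0.39 to 0.53) for CDH1 and 0.16 (0.07 to 0.25) for EPCAM, positive under every scaling tried. In EZH2i they were 0.34 (0.27 to 0.42) and 0.29 (0.20 to 0.38), and with the trend removed −0.11 and 0.11. All 4 differences were inside the spreads of 0.67 and 0.69.

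The expression minimum was reached by 7 of the 10 genes in each comparison. In CDK2i 1 of these 7, TWIST1, was past 2-fold, and it was lower. Over all 6632 genes tested in CDK2i the share was 11.3% (3.27% higher and 8.07% lower). In EZH2i 0 of 7 were past 2-fold, against 13.4% of 7414 genes (8.93% higher and 4.42% lower). Without the minimum, TWIST1 and ZEB1 were past 2-fold lower in CDK2i, where 28.0% of genes above 0 FPKM in both tumors were past it, and ZEB1 and CDH2 were higher in EZH2i, where 27.1% were. With so few genes the shares cannot be set apart from the background. The median difference of the 10 genes was 0.09 in CDK2i, where that of all genes tested was −0.04, and 0.31 in EZH2i, where it was 0.15. Both comparisons use the same vehicle library, so a chance deviation of that library would enter both.

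Within each tumor the order of levels was much the same. FN1, EPCAM, VIM and CDH1 followed each other from the top in all 3 tumors, and ZEB2, CDH2 and ZEB1 from the eighth place down. Only SNAI1, SNAI2 and TWIST1 traded places. TWIST1 led them in vehicle, by 0.65 log2 units over SNAI2 (0.49 to 0.81), and SNAI2 and SNAI1 did not differ beyond counting error, with a gap of 0.18 (−0.01 to 0.36). In CDK2i TWIST1 was the last of the 3, 1.21 log2 units below SNAI2 (1.04 to 1.38), and SNAI1 and SNAI2 were again level, with a gap of 0.02 (−0.10 to 0.15). In EZH2i SNAI2 stood above TWIST1 by 0.16 (0.01 to 0.31) and TWIST1 above SNAI1 by 0.62 (0.44 to 0.81).

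Ratios between genes of the same tumor do not depend on the scaling between libraries, though they can hold the GC and length trend. The ratio of SNAI1 to TWIST1 was 0.565 in vehicle, 2.35 under CDK2i and 0.651 under EZH2i. The CDK2i tumor thus had more SNAI1 than TWIST1, and the other tumors had less. Its log2 ratio was 2.06 above that of vehicle (1.80 to 2.30), while EZH2i was 0.21 above it (−0.06 to 0.46). The ratio of SNAI2 to TWIST1 shifted alike in CDK2i, by 1.86 (1.62 to 2.09), and by 0.81 (0.59 to 1.03) in EZH2i. With the trend removed the EZH2i shifts were 0.23 for SNAI1 over TWIST1 and 0.15 for SNAI2 over TWIST1.

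The ratio of CDH1 to VIM, an epithelial gene over a mesenchymal one, was 0.602 in vehicle, 0.904 under CDK2i and 0.606 under EZH2i. It was higher in CDK2i by 0.59 log2 units (0.47 to 0.70) and level with vehicle in EZH2i, at 0.01 (−0.10 to 0.12), or −0.50 with the trend removed. EPCAM over VIM shifted by 0.28 (0.15 to 0.41) in CDK2i and by −0.04 (−0.17 to 0.08) in EZH2i, or −0.28 with the trend removed. The cadherins gave another picture. CDH1 exceeded CDH2 by 74.0 times in vehicle, 100.5 times under CDK2i and 37.8 times under EZH2i. The EZH2i ratio was 0.97 log2 units under that of vehicle (−1.62 to −0.32), a difference of −0.21 when 1 was added to each FPKM value, while CDK2i was 0.44 above vehicle (−0.29 to 1.23). The mean log2 level of CDH1 and EPCAM less that of VIM, FN1 and CDH2 was 1.70 in vehicle, 1.91 under CDK2i and 1.40 under EZH2i. The EZH2i tumor was thus at −0.29 relative to vehicle, and at −0.04 with 1 added to each FPKM value.

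**Figure D3:**
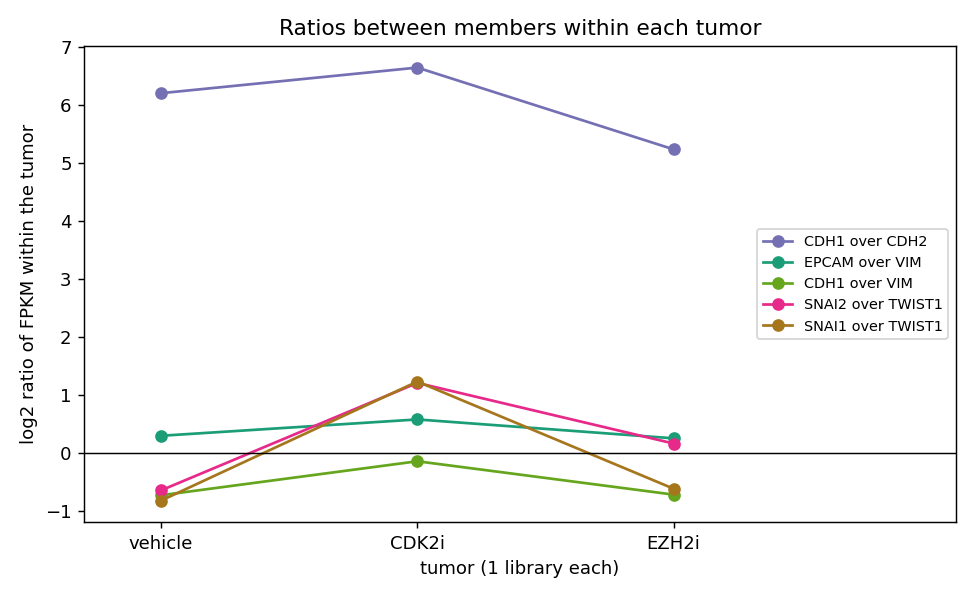
Log2 ratio of the FPKM of 2 genes within the same tumor, for 5 pairs, with tumors on the horizontal axis, 1 library each, and lines that only join the values of a pair. SNAI1 over TWIST1 and SNAI2 over TWIST1 are above 0 in CDK2i at 1.23 and 1.21 and below 0 in vehicle, and CDH1 over CDH2 is lowest in EZH2i at 5.24.

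Set directly against each other, the treated tumors differed most, among the genes above the minimum, in SNAI1. EZH2i was 1.06 log2 units below CDK2i (−1.23 to −0.89). TWIST1 was 0.79 higher in EZH2i than in CDK2i and VIM 0.46 higher. With the trend removed, the 10 genes in EZH2i ran from −0.60 for ZEB2 to 0.75 for CDH2. The genes of low GC content, ZEB1, ZEB2, SNAI2, CDH2 and EPCAM (38.9% to 44.3%, where the median expressed gene had 49.8%), all had EZH2i values above 0, and SNAI1 and TWIST1, with 58.4% and 57.2%, were the ones below 0. VIM and FN1, with 54.3% and 50.8%, were above the median GC content and had EZH2i values above 0 too. The part of the trend in these values was not tested beyond its removal.

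**Figure D4:**
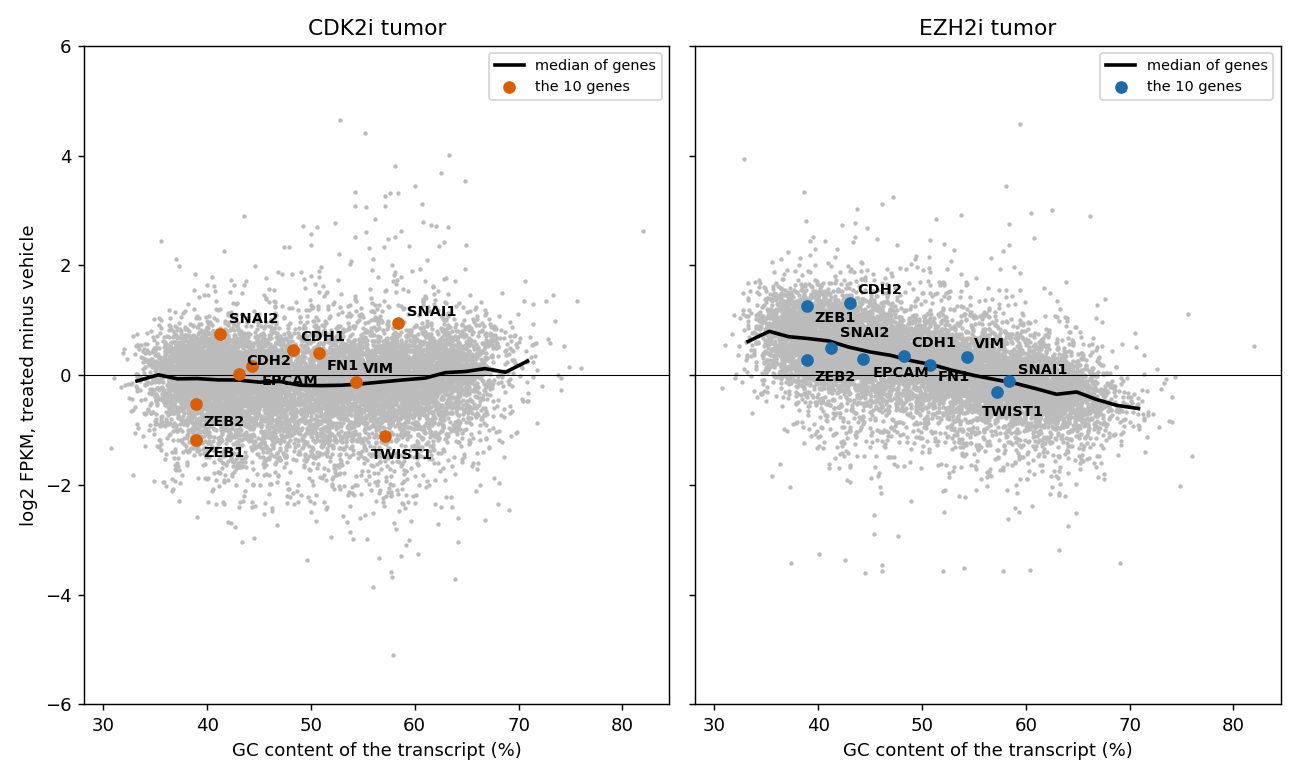
Log2 FPKM of the treated tumor minus vehicle against the GC content of the transcript for the expressed genes (grey), with their median in steps of GC content (black line) and the 10 genes (coloured and named), for CDK2i on the left and EZH2i on the right. The line is nearly flat in CDK2i and falls with GC content in EZH2i (Spearman correlation −0.581), where SNAI1 and TWIST1 lie below 0 and the other 8 genes above it.

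The wider pathway was read from 7 lists holding 103 genes, of which 101 were listed. In CDK2i 62 of them reached the minimum and 6 passed 2-fold, all 6 higher (9.68%, where all genes tested gave 11.3%). In EZH2i 69 reached it and 23 passed, 16 higher and 7 lower (33.3%, where all genes gave 13.4%). The lists were chosen with earlier results of these data known, so these shares only describe the lists. Among the higher genes CDH13, GRHL3, MLLT4, SMAD3, TGFBR1 and TJP1 were below the minimum in vehicle. In this comparison they reached it only through the EZH2i tumor. In CDK2i the same held for CDH13 and OVOL1. The EZH2i balance turned with the scaling. It was 6 higher and 10 lower with the median levels of the tumors set equal and 24 and 2 with summed FPKM made equal. With the trend removed 2 were higher and 4 lower, 8.70% against 5.25% of all genes. Among these 6, SOX4, at −1.09, had not passed before the removal. In CDK2i none was lower under these same scalings (11 higher with the trend removed), while summed FPKM made equal over genes other than ribosomal protein and mitochondrial ones gave 5 higher and 1 lower.

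CDH1 works with catenins and linkers at adherens junctions. All 9 genes of this list reached the minimum and all 9 were above vehicle in CDK2i, with a median of 0.42 (all expressed genes, −0.11). MLLT4 was below the minimum in vehicle (6.89 FPKM) and reached it in CDK2i (8.66 FPKM), so the filter fixed its direction there. JUP, which encodes plakoglobin, was past 2-fold, at 248 FPKM in vehicle, 555 under CDK2i and 258 under EZH2i. In EZH2i VCL (vinculin) and MLLT4 (afadin) were higher by 1.08 and 1.17, and PVRL4 (nectin-4) was at −1.04. Without the trend VCL and MLLT4 were at 0.62 and 0.55, short of 2-fold, and PVRL4 at −1.11, past it. The median was 0.14, next to 0.19 for all expressed genes. Among 6 other cadherins, CDH13 (T-cadherin), which is held to the membrane by a lipid anchor, was at 6.63 FPKM in vehicle, 16.6 under CDK2i and 13.9 under EZH2i, past 2-fold in both, though with the trend removed the EZH2i difference was 0.31.

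Of 13 regulators of the epithelial state, 10 reached the minimum in CDK2i, where 2 passed 2-fold, both higher. In EZH2i 11 reached it, and 2 passed higher and 2 lower. Of all genes tested, 11.3% passed in CDK2i and 13.4% in EZH2i. ELF3, an epithelial ETS factor, differed in opposite directions, at 13.0 FPKM in vehicle, 43.0 under CDK2i and 3.60 under EZH2i. Its log2 differences of 1.73 and −1.85 were past 2-fold with the trend removed as well (1.94 and −1.99). OVOL1, a repressor of the transition, was higher in CDK2i by 1.52 but only just above the minimum there, and its relative OVOL2 was at −1.19 in EZH2i. GRHL3, a grainyhead factor of epidermal cells, was higher in EZH2i by 1.65, and TP63, the regulator of basal epithelial cells, by 1.13. Once the trend was removed, GRHL3 was still past 2-fold at 1.52, and OVOL2 and TP63 were not, at −0.91 and 0.48.

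The list of 26 epithelial junction, polarity and surface genes, 25 of them listed, gave opposite medians. Over its 21 expressed genes the CDK2i median was 0.21 and the EZH2i median −0.36, or −0.28 with the trend removed. In CDK2i 0 of the 16 above the minimum passed 2-fold, where 11.3% of all genes tested did. In EZH2i 3 of 17 passed, where all genes gave 13.4%. CLDN4 (claudin-4) was at −1.02 and KRT19, a keratin of simple epithelia, at −1.24, and TJP1, the tight junction scaffold ZO-1, was higher by 1.37. None of these 3 was past 2-fold with the trend removed, when they were at −0.65, −0.77 and 0.70.

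The next list held 28 mesenchymal genes beyond the 10. In EZH2i 8 of 19 above the minimum passed 2-fold, 7 higher and 1 lower. Of all genes tested in EZH2i 13.4% did, 8.93% higher and 4.42% lower. The matrix genes TNC (tenascin-C) and THBS1 (thrombospondin-1) were higher by 1.41 and 1.07, the surface and cortex genes CD44 and MSN by 1.17 and 1.00, and FSTL1 by 1.21, while S100A4 was at −1.28. With the trend removed MMP9 was the one gene of this list still past 2-fold. In CDK2i 2 of 18 passed, where all genes gave 11.3%, and these also passed in EZH2i. MMP9, a gelatinase, was at 20.0 FPKM in vehicle, 102 under CDK2i and 56.4 under EZH2i. The list medians over 23 expressed genes were 0.39 in CDK2i and 0.71 in EZH2i, where all expressed genes gave −0.11 and 0.19. With the trend removed the list medians were nearly level, at 0.53 in CDK2i and 0.51 in EZH2i.

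TGF-beta ligands, receptors and SMADs drive the transition in many epithelia. In EZH2i 7 reached the minimum, and 3 of the 7 passed 2-fold, where 13.4% of all genes tested did. TGFBR1, SMAD2, SMAD3, SMAD4 and SMAD7 were below it in vehicle and reached it only in EZH2i, so the filter fixed their direction. TGFB3, below the minimum in both, was at −0.06. Over the 8 expressed genes of the list the median was 0.99, where all expressed genes gave 0.19, both before removal of the trend. With the trend removed the list median was 0.55. TGFB2, a ligand, was at 17.5 FPKM in vehicle, 9.86 under CDK2i and 55.4 under EZH2i. TGFBR1, the type I receptor, and SMAD3, a signal transducer, were higher in EZH2i by 1.26 and 1.05. With the trend removed the 3 were at 0.95, 0.44 and 0.61. In CDK2i 0 of 3 passed, where all genes gave 11.3%. The 12 other transcription factors of the transition, 11 of them listed, had 4 above the minimum. FOXC1 was the one past 2-fold, at −1.22 in EZH2i, or −1.32 with the trend removed.

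**Figure D5:**
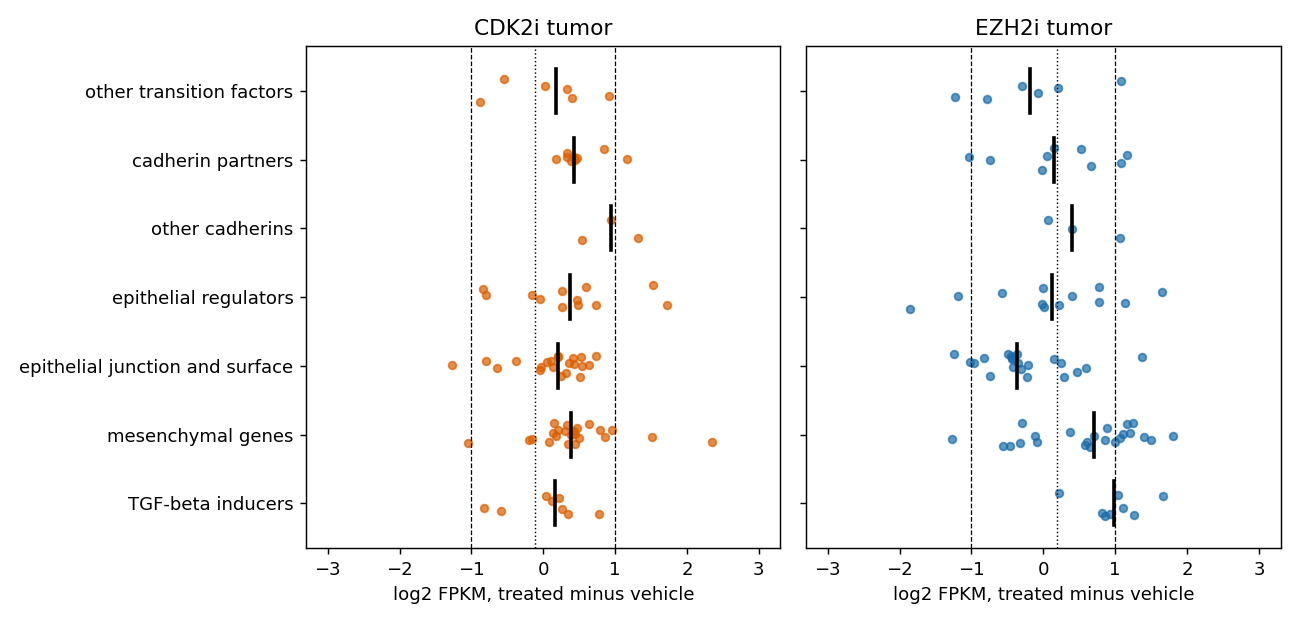
Log2 FPKM of the treated tumor minus vehicle for the expressed genes of the 7 pathway lists (1 dot a gene, with a small vertical offset to separate dots), with the list median as a black bar, the median of all expressed genes as a dotted line and dashed lines at 2-fold, for CDK2i on the left and EZH2i on the right. List medians lie between 0.17 and 0.94 in CDK2i and between −0.36 and 0.99 in EZH2i.

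Host and stromal cells also express VIM, FN1, ZEB1 and ZEB2, so their markers were summed. The 10 fibroblast markers, all listed, summed to 25.3 FPKM in vehicle, 39.6 under CDK2i and 31.1 under EZH2i, mostly COL1A1, and LUM was past 2-fold in CDK2i at 9.19 FPKM against 4.54 in vehicle. Other markers of the list went the other way in CDK2i, COL3A1 from 3.88 to 1.43 FPKM and DCN from 2.75 to 1.70. THY1 was listed at 0 in all 3 tumors, PDGFRB was below 0.15 FPKM, and 5 of the 10 were below 1 FPKM throughout. FN1 and the fibroblast sum were both highest in CDK2i. Macrophage markers (8 of 9 listed) summed to 11.6, 11.3 and 5.69 FPKM, with CD68 at or near 0 and CD14 lowest in EZH2i, and endothelial markers (4 of 6), led by KDR and VWF, to 0.895, 0.771 and 0.554. Adipocyte markers (3 of 4) summed to 33.2, 19.3 and 3.50 FPKM, nearly all FABP4, with ADIPOQ at or near 0. The part of these cells in the values of the 10 genes was not tested, and neither was that of mouse reads aligned to the human genome.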

How the data were processed

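Total RNA of SUM-149 xenograft tumors was sequenced as 3 libraries, 1 each for vehicle, CDK2i and EZH2i. The authors deposited log2 FPKM values for 29689 gene symbols, with 0 written as −9, and the submitters' processing notes name CASAVA, STAR and the hg19 build. Limma with a p-value cutoff, a 2-fold cutoff and a minimum of log2 FPKM 3 for the higher value is given in the study. The annotation is given in the study by its build alone. The counting program, the annotation release, the gene lengths and the strand setting are not given in the sources used here.

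From the deposited log2 values, each treated tumor was compared with vehicle as a difference. A gene was called when the fold was above 2 and the higher value above log2 FPKM 3. Limma was not run, since 1 library per group leaves no residual degrees of freedom, so the calls lack the study's p-value cutoff. Fragment numbers came from the smallest step between FPKM values and GENCODE 44 transcript lengths on GRCh37, and are approximate. The 95% intervals are exact binomial ones and cover counting error only. The GC and length trend was removed with polynomials of degree 3, fitted on 10201 genes (92.6% of expressed genes had both properties, 701 of them through an older symbol). Scripts used Python 3.11.15, numpy 2.4.6, pandas 2.3.3 and scipy 1.17.1, and were tested on simulated data. Alternatives for the fold, the minimum, the pseudocount and the scaling are described in the closing section. No column of per-sample values was left unused.

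The 10 genes and all gene lists were chosen with earlier results of these data known. Named were the 10 genes and, of each list, every gene past both thresholds in a treated tumor, otherwise the 2 with the highest mean, except for 1 gene that is not reported here. SOX4, COL1A1, COL3A1, DCN, THY1, PDGFRB, CD68, ADIPOQ, PGR, ZEB1-AS1 and VIM-AS1 were named after their values were seen. The miR-200 precursors, GSC, CD24, MRC1, PECAM1, TEK and LEP were not analysed here.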

Additional observations from a re-analysis of the deposited data

How the results depend on the processing

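With 1 library per group no library could be left out. No paired analysis was possible because each group has 1 sample. Of 120 recomputed differences of the 10 genes, 110 kept their sign. The exceptions were VIM in CDK2i (0.06 with median levels set equal, 0.02 with equal summed FPKM, 0.11 with the GC and length trend removed), CDH2 in CDK2i (−0.13 with sums equal without ribosomal protein and mitochondrial genes) and, in EZH2i, FN1 (−0.06 with medians equal, −0.32 without the trend), SNAI1 (0.13 with equal sums, 0.18 without the trend), ZEB2 (−0.60) and CDH1 (−0.11), both without the trend. The 1 call among the 10 genes in CDK2i became 3 at 1.5-fold and 0 at 3-fold, where 29.4% and 3.77% of all genes tested passed. It became 2 without the expression minimum, where 28.0% of genes above 0 FPKM in both tumors passed. With a minimum of log2 FPKM 5 it became 0, where 8.57% of all genes tested passed. With medians or sums equal, or without the trend, the 1 call was SNAI1 higher in place of TWIST1 lower. All genes tested then gave 10.5%, 10.3% and 9.08%. In EZH2i the 0 calls became 2 without the minimum, ZEB1 and CDH2, where 27.1% of genes above 0 FPKM in both tumors passed.

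The 6 pathway calls in CDK2i became 21 at 1.5-fold, 2 at 3-fold and 16 without the minimum. They became 10 with a minimum of log2 FPKM 1 and 3 with a minimum of 5. With medians equal there were 10, with equal sums 10 and without the trend 11. At 1.5-fold 33.9% of the pathway genes tested passed, where 29.4% of all genes did, and at 3-fold 3.23% and 3.77%. Without the minimum the shares were 16.0% and 43.6%, with genes at 0 FPKM in 1 tumor counted. With a minimum of log2 FPKM 1 they were 11.8% and 17.4%. With medians equal, sums equal and the trend removed, 14.9%, 16.1% and 17.7% passed, against 10.5%, 10.3% and 9.08% of all genes. The 23 in EZH2i became 41 at 1.5-fold, 3 at 3-fold, 13 with a minimum of 5 and 6 without the trend. At 1.5-fold 59.4% of the pathway genes tested in EZH2i passed, where 36.6% of all genes did, and at 3-fold 4.35% and 2.51%. With a minimum of 5 the EZH2i shares were 31.7% and 11%, and without the trend 8.70% and 5.25%. In EZH2i a pseudocount of 1 moved the log2 ratio of CDH1 to CDH2 from −0.97 to −0.21 and the epithelial less mesenchymal mean from −0.29 to −0.041, and removing the trend moved CDH1 over VIM from 0.01 to −0.50 and EPCAM over VIM from −0.04 to −0.28. The cause was not tested. Counts per list stayed within 1.5 times in 86 of 154 recomputations. Depth limits ZEB1, at 2 to 9 fragments, and CDH2, at 30 to 77.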
